A study of Mus musculus with 12 samples.

Results

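The transcripts of 9 heme genes were followed across 12 RNA-seq libraries of HT22 cells, a mouse line of hippocampal neuronal origin. The genes were chosen by name, whatever their level: the heme synthesis enzymes Alas1, Alad, Uros, Urod, Cpox, Ppox and Fech, and the heme breakdown enzymes Hmox1 and Blvrb. They are 9 of the 24343 genes kept from the deposited tables, and all 9 passed the filter on low values. Each of 4 groups held 3 libraries that the labels call biological replicates. The siControl group received a negative control siRNA and the siNCOA4 group an siRNA against Ncoa4, the cargo receptor that delivers ferritin to lysosomes for iron release. Both groups were kept at normal iron. In siControl+DFO and siNCOA4+DFO, cells with the respective siRNA also received the iron chelator DFO (desferrioxamine) at 100 µM for 24 h. As a model these are cultures of 1 established line, all 4 groups were transfected, and the knockdown used a single siRNA product. In bulk libraries, fewer cells expressing a gene and less RNA per cell cannot be told apart.

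Heme is an iron-containing porphyrin that serves cytochromes, catalase and other enzymes. Its synthesis starts in mitochondria, where ALAS joins glycine and succinyl-CoA. It continues in the cytosol, with ALAD, UROS and UROD among the enzymes, and returns to mitochondria, where CPOX and PPOX oxidize the porphyrinogen and FECH inserts ferrous iron. Heme oxygenases open the ring and free iron, carbon monoxide and biliverdin, which biliverdin reductases turn into bilirubin. ALAS1 is the form of the first enzyme used outside erythroid cells, and HMOX1 is the inducible heme oxygenase.

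Values are FPKM, which scale fragments by transcript length and library total, so levels of different genes can be set side by side per length. Fold changes were fitted with limma on log2(FPKM + 0.1) over 11924 genes, and a gene is said to have risen or fallen where its adjusted p was below 0.05. "Called" means that the fold change was also above 2. The 95% intervals of fold changes come from the same fit and are not adjusted for the number of genes.

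Ncoa4 itself ranged from 6.02 to 6.46 FPKM in siControl and from 0.770 to 0.952 in siNCOA4, and under DFO from 7.52 to 8.70 and from 0.850 to 1.57, as the labels state. Relative library depth, read from the steps of low FPKM values, spanned 1.52-fold. The siNCOA4 libraries were the deepest, at 1.26 to 1.41 times siControl replicate 1, and the ranges of the other 3 groups overlapped. The number of reads behind a value is unknown. Small RNA genes took 38.0 to 41.3% of the FPKM sum in siControl, 36.4 to 40.9% in siNCOA4, 42.2 to 46.0% in siControl+DFO and 48.1 to 52.4% in siNCOA4+DFO, so their share moved with the treatments. Of 11 neuron markers only 2 passed the filter, with Tubb3 at 7.77 ± 0.45 FPKM and Syn1 at 5.52 ± 0.28 in siControl (SD, n = 3), while Rbfox3, Snap25 and Dcx were listed at 0 in those libraries and Chat in all 12. The neuron markers summed to 13.2 to 14.1 FPKM in siControl, 9.59 to 12.6 in siNCOA4, 17.6 to 18.5 in siControl+DFO and 11.1 to 13.9 in siNCOA4+DFO. The 6 fibroblast markers, led by Vim and Col1a2, summed to 2840 to 3250 FPKM in siControl, 2110 to 2260 in siNCOA4, 1810 to 1880 in siControl+DFO and 1570 to 1710 in siNCOA4+DFO. The 5 astrocyte markers summed to 36.5 to 46.0, 22.5 to 27.0, 3.31 to 5.48 and 6.98 to 15.3 FPKM in the same order, most of it Slc1a3. The 5 microglia markers, mostly Tmem119, summed to 10.1 to 11.8, 3.79 to 5.67, 0.985 to 1.68 and 0.457 to 2.01. The 8 erythroid markers found in the tables summed to at most 0.403 and 0.331 FPKM in siControl and siNCOA4, to 1.16 to 1.51 in siControl+DFO and to 0 to 4.71 in siNCOA4+DFO, with Hbb-bs at 0. The part of these shifts in the results below was not tested.

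In siControl cells the 9 genes covered a wide span of levels. Blvrb, the biliverdin reductase B gene, was the highest at 54.2 ± 9.88 FPKM (SD, n = 3). Cpox at 22.6 ± 3.71 and Urod at 22.5 ± 2.90 came next and overlapped each other. Fech at 16.6 ± 1.09, Alad at 14.4 ± 0.79, Hmox1 at 10.8 ± 0.39 and Alas1 at 7.90 ± 1.11 followed without overlap between neighbours. Ppox at 3.86 ± 0.76 and Uros at 3.57 ± 1.05 were lowest and overlapped. In siControl+DFO the order was different: Hmox1 at 90.5 ± 7.39 and Cpox at 84.8 ± 1.16 FPKM overlapped at the top and stood above Blvrb at 40.3 ± 7.73. In siNCOA4+DFO the same pair led, with Cpox at 73.1 ± 9.75 and Hmox1 at 70.8 ± 10.9. In siNCOA4 without DFO the order of the means was that of siControl, with Hmox1 overlapping both Alad and Alas1.

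**Figure D1:**
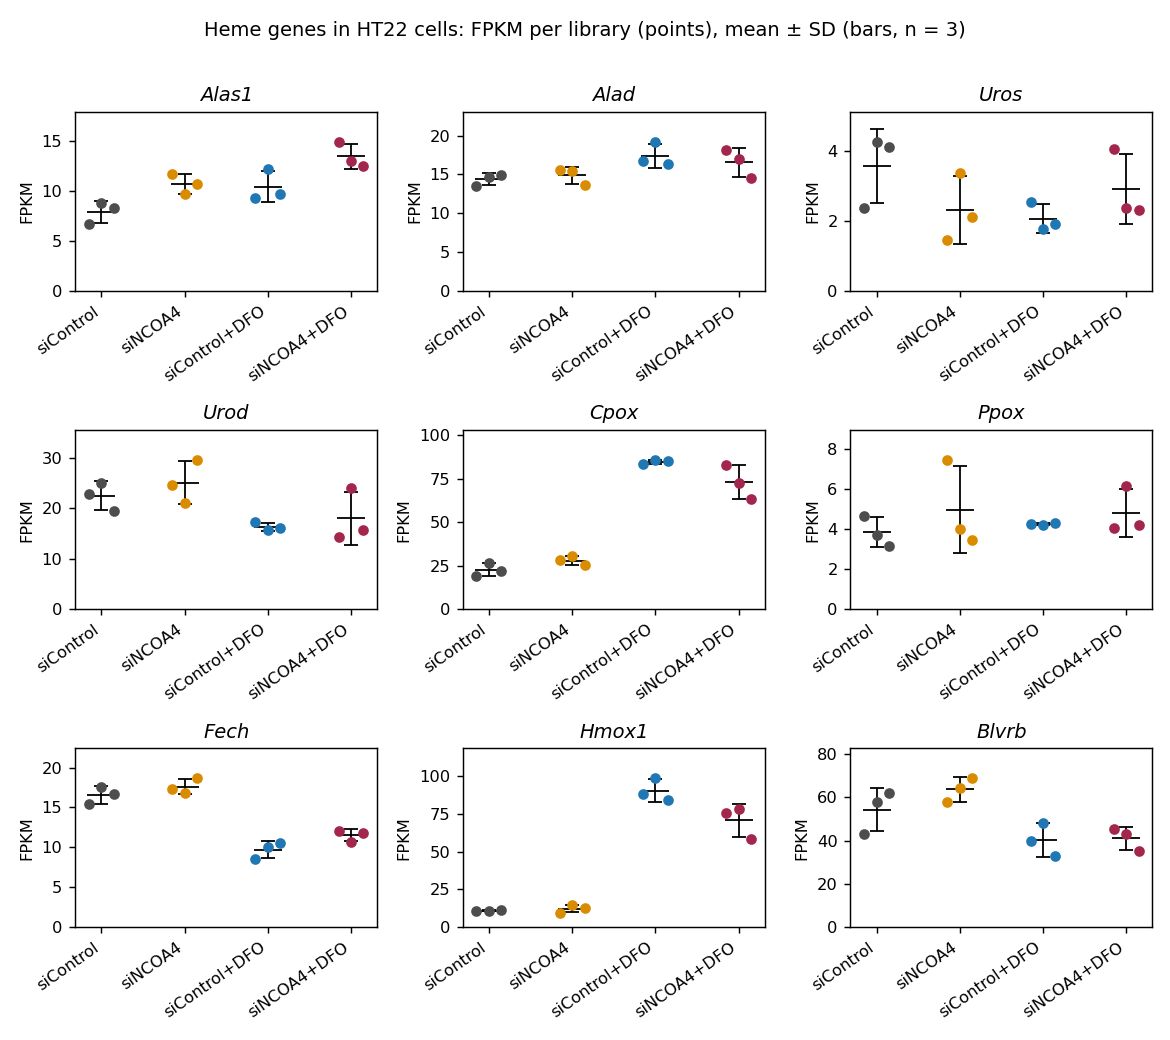
FPKM of the 9 heme genes (y axis, from 0, 1 panel a gene) in the 4 groups; each point is 1 library, and the bars give the mean ± SD of 3 libraries. Hmox1 and Cpox are at 58.3 and 63.5 FPKM or more in every DFO library and at 14.5 and 30.3 or less in every other, Fech is lower in every DFO library, and Uros and Ppox overlap in all groups.

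DFO in siControl cells raised 4 of the 9 genes (Alas1, Alad, Cpox and Hmox1) and lowered 2 (Fech and Blvrb). Over all genes tested in that comparison, 27.7% rose and 25.7% fell, and from 9 genes beside such shares nothing is read from the counts themselves. Hmox1 and Cpox were called, where 11.1% of all genes were called higher. In siNCOA4 cells DFO raised 2 of the 9 genes, Cpox and Hmox1, and lowered 3, Urod, Fech and Blvrb, beside 23.1% and 19.6% of all genes. The same pair was called there, beside 7.59% of all genes. The median log2 fold change of the 9 genes was 0.16 in siControl and 0.15 in siNCOA4 cells, and that of all genes was -0.01 and -0.0035. The 2 responses share no library.

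Hmox1 (chr8:75093621-75100589, + strand, GRCm38) is the inducible heme oxygenase, which cleaves heme. Its 3 siControl libraries held 10.7, 10.4 and 11.1 FPKM, and its siControl+DFO libraries held 88.5, 98.7 and 84.3. In siNCOA4 the values were 9.61, 14.5 and 12.8, and in siNCOA4+DFO they were 75.6, 78.4 and 58.3. Every DFO library was above every library without DFO. The rise was 8.34-fold (95% interval 6.70 to 10.4) in siControl cells, or 3.06 on the log2 scale (SE 0.15, adjusted p = 1.227e-08). In siNCOA4 cells it was 5.75-fold (4.62 to 7.15), or 2.52 (adjusted p = 1.425e-07). The difference between both responses was -0.54 on the log2 scale (SE 0.21, interval -0.98 to -0.09), with an unadjusted p of 0.0224 and an adjusted p of 0.190, so it did not pass. Under DFO, all 3 siNCOA4 libraries were below all 3 siControl libraries, and the fitted difference of -0.36 did not pass either (adjusted p = 0.105).

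Hmox2 makes the constitutive heme oxygenase and moved the other way. Its siControl libraries held 32.3, 30.4 and 32.5 FPKM and its siControl+DFO libraries 22.6, 21.6 and 21.9, without overlap. It fell by 0.52 (SE 0.09, adjusted p = 0.0003388) on the log2 scale in siControl cells and by 0.62 (adjusted p = 0.0001464) in siNCOA4 cells. Hmox1 therefore made up 25.3% ± 0.30 of the summed FPKM of both oxygenases in siControl and 80.4% ± 1.45 in siControl+DFO (SD, n = 3). In siNCOA4 its share was 27.0% ± 4.34, and in siNCOA4+DFO it was 76.3% ± 4.88. These shares are per length of transcript and were not tested.

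Cpox (chr16:58670292-58717636, + strand) encodes coproporphyrinogen oxidase, which makes protoporphyrinogen. Its siControl libraries held 19.2, 26.6 and 21.9 FPKM, and its siControl+DFO libraries 83.5, 85.7 and 85.2. In siNCOA4 the values were 28.1, 30.3 and 25.2, and in siNCOA4+DFO they were 83.0, 72.7 and 63.5. As for Hmox1, the libraries with and without DFO did not overlap. The rise was 3.78-fold (95% interval 3.14 to 4.55) in siControl cells, or 1.92 on the log2 scale (SE 0.12, adjusted p = 1.25e-07). In siNCOA4 cells it was 2.61-fold (2.17 to 3.14), or 1.38 (adjusted p = 3.785e-06). The response in siNCOA4 cells was smaller by a log2 difference of -0.53 (SE 0.17, interval -0.91 to -0.15), with an unadjusted p of 0.00970 and an adjusted p of 0.128, which did not pass. Gpr15 lies over Cpox exons on the opposite strand and was listed at 0 in 11 of the 12 libraries, with 0.203 FPKM in siNCOA4 replicate 3.

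The genes of the enzymes on either side of CPOX did not rise with it. Urod (chr4:116989965-116994413, - strand) encodes uroporphyrinogen decarboxylase, which makes the substrate of CPOX. It held 22.9, 25.2 and 19.4 FPKM in siControl and 17.3, 15.7 and 16.1 in siControl+DFO, all 3 lower, yet the log2 change of -0.45 (SE 0.18) missed the threshold at an adjusted p of 0.0534. Over the alternatives that keep all libraries its adjusted p ran from 0.0124 to 0.0849, and with 1 library left out from 0.0138 to 0.164, below 0.05 in 4 of 12 cases. In siNCOA4 cells Urod went from 24.7, 21.1 and 29.6 FPKM to 14.3, 24.1 and 15.8, where siNCOA4+DFO replicate 2 lay within the range of the cells without DFO. Its log2 change of -0.50 passed there (adjusted p = 0.0428), and leaving out each library in turn gave adjusted p from 0.00279 to 0.169, below 0.05 in 4 of 12 cases. With all libraries kept it was 0.0698 with no filter on low values, 0.0605 with a replicate block, 0.0966 with the compared groups alone and 0.0679 with no variance trend. Without siNCOA4+DFO replicate 2 the log2 change was -0.72, and without siNCOA4+DFO replicate 1 it was -0.35. A small part of Urod, 1.92% of its 75-base windows, is shared with other annotated genes.

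Ppox (chr1:171275990-171281186, - strand) encodes protoporphyrinogen oxidase, which takes up the product of CPOX. Its 12 values lay between 3.17 and 7.46 FPKM, the highest of them siNCOA4 replicate 1, and no comparison passed. The DFO change was 0.16 on the log2 scale in siControl (95% interval -0.42 to 0.73) and 0.0066 in siNCOA4 cells (-0.57 to 0.59). B4galt3, annotated over Ppox exons on the opposite strand, held 2.67 to 7.44 FPKM, a level like that of Ppox itself. The kit keeps the strand, but whether the counting used it is not given in the sources used here.

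To compare the letters before their starts, upstream sequences are shown for the 4 members that rose or fell with DFO in at least 1 siRNA background and hold one of the motifs searched. Alas1, which also rose, holds none of them. RefSeq windows of GRCm38.p6 were used for 7 of the 9 genes. No window of Hmox1 or Fech was searched, so whether these motifs stand before either gene was not tested. Both genes changed with DFO in both siRNA backgrounds, and the motif comparison leaves them out. The windows of the 7 genes were searched on both strands for ACGTG, a form of the core of the hypoxia response element. They were also searched for CACGTG, which holds ACGTG on both strands. The form of that core with GCGTG was not searched, so nothing is said of it for any window. ACGTG is in 16.6% of 32851 promoter windows of that length and CACGTG in 6.0%. Cpox, which rose, has ACGTG once, at -106 from a RefSeq start. The bases after that start match no protein-coding GENCODE transcript of the gene. Alad, which rose slightly in siControl cells, and Urod, which fell in siNCOA4 cells, have CACGTG, starting at -28 and -49. Alad has it also at -105 from a second RefSeq start, where the bases match no such transcript of Alad either. Blvrb, which fell, has ACGTG at -123 from 1 of its 2 starts. Uros, which did not pass, has CACGTG at -250 from 1 of its 2 starts, which likewise matches no such transcript of Uros. The windows of Ppox and Alas1 hold neither ACGTG nor CACGTG. The 250 bases before each start are given 5′ to 3′ on the gene's strand, with the match in capitals, for Cpox (chr16:58669958-58670207, +), Alad (chr4:62519910-62520159, -), Urod (chr4:116994414-116994663, -) and Blvrb (chr7:27452168-27452417, +).
Cpox: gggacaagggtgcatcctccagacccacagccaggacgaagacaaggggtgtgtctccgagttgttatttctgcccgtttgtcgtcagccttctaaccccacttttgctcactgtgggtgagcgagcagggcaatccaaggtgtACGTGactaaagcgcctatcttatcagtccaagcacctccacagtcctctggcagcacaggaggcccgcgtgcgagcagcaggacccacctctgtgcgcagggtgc
Alad: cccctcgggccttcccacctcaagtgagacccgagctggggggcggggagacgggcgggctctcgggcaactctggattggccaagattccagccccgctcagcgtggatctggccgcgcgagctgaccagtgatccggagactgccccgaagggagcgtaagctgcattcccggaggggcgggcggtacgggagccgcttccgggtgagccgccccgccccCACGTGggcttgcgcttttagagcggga
Urod: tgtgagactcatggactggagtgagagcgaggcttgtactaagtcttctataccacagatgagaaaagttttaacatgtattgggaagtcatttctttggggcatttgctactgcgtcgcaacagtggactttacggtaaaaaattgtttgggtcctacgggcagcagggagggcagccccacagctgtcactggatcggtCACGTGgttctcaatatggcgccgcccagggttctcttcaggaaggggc
Blvrb: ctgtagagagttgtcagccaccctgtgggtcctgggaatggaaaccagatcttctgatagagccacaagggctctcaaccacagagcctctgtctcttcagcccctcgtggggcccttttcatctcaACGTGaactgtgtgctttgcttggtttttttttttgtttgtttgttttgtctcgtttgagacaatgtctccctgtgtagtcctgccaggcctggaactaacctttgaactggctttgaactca

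Among the 7 genes with a window searched, ACGTG, also as part of CACGTG, thus stands before 2 that rose with DFO, Cpox and Alad. It also stands before 2 that fell, Urod and, at 1 of its 2 starts, Blvrb. That Blvrb window lies within the annotated gene, and the window that ends at the gene's first base holds no ACGTG. Of the 2 siRNA backgrounds, Alad passed only in siControl (adjusted p = 0.0486) and Urod only in siNCOA4 cells (adjusted p = 0.0428), both near the threshold. A match is a description of the sequence and not a site, and no match says only that the letters are not in this window. In addition, TGACNNNGC, the core of the element bound by NRF2 and BACH1, was searched and is in none of the windows of the 7 genes, beside 10.2% of all windows.

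The ratio of Cpox to Ppox FPKM was 6.05 ± 1.68 in siControl, 6.20 ± 2.11 in siNCOA4, 19.9 ± 0.31 in siControl+DFO and 15.8 ± 4.43 in siNCOA4+DFO (SD, n = 3). Cpox alone made up 24.6% ± 1.84 of the summed FPKM of the 7 synthesis genes in siControl and 58.5% ± 0.80 in siControl+DFO. In siNCOA4 and siNCOA4+DFO it made up 27.0% ± 2.93 and 52.0% ± 2.83. The sum of all 7 was 91.3 ± 8.35 FPKM in siControl and 145 ± 3.44 in siControl+DFO. Without Cpox, the other 6 summed to 68.8 ± 4.70 and 60.2 ± 2.51 FPKM in these groups, and to 75.6 ± 4.52 and 67.3 ± 6.11 in siNCOA4 and siNCOA4+DFO. The higher sum with DFO was thus made up by Cpox.

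**Figure D2:**
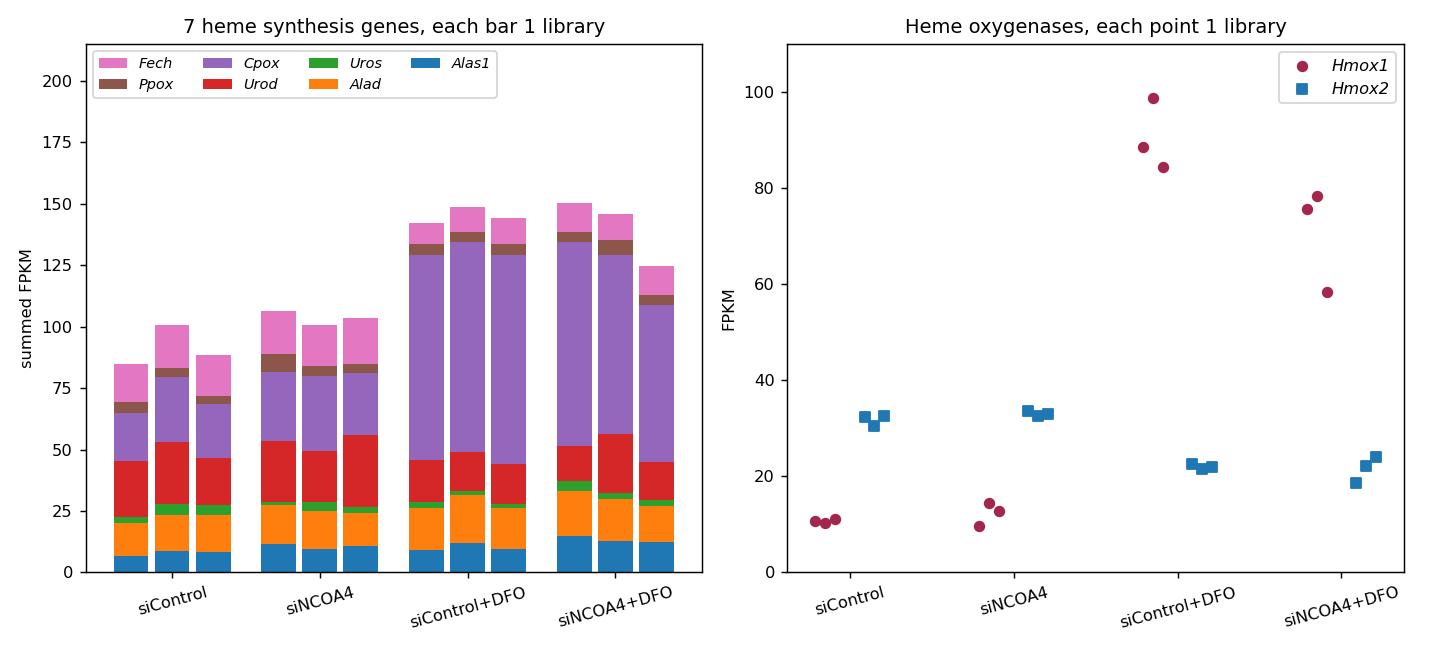
Left, summed FPKM of the 7 synthesis genes in each library (y axis, from 0), with 1 bar a library and 1 colour a gene; right, FPKM of Hmox1 (circles) and Hmox2 (squares), 1 point a library. Cpox widens from 24.6% to 58.5% of the bar between siControl and siControl+DFO, and Hmox1 passes Hmox2 in every DFO library.

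Fech (chr18:64452914-64490251, - strand) encodes ferrochelatase, the last enzyme, which places iron into protoporphyrin. Its siControl libraries held 15.4, 17.6 and 16.7 FPKM and its siControl+DFO libraries 8.50, 10.1 and 10.6. In siNCOA4 the values were 17.3, 16.8 and 18.7, and in siNCOA4+DFO they were 12.1, 10.7 and 11.8. All DFO libraries were below all libraries without DFO. Fech fell by 0.77 on the log2 scale in siControl cells (SE 0.10, adjusted p = 5.907e-05) and by 0.61 in siNCOA4 cells (adjusted p = 0.0005205), 1.70-fold and 1.53-fold. It passed in both under every alternative setting and without any 1 library. The ratio of Cpox to Fech FPKM went from 1.36 ± 0.14 in siControl to 8.79 ± 0.92 in siControl+DFO, and from 1.59 ± 0.23 in siNCOA4 to 6.36 ± 0.84 in siNCOA4+DFO. Of the 75-base windows of Fech, 1.39% are shared with other annotated genes.

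Alad (chr4:62509169-62519918, - strand) encodes aminolevulinate dehydratase. It held 13.5, 14.7 and 14.9 FPKM in siControl and 16.7, 19.2 and 16.3 in siControl+DFO, without overlap, a 1.21-fold rise (log2 fold change 0.27, SE 0.11, adjusted p = 0.0486). That p lies at the threshold: it ran from 0.0446 to 0.228 over 11 alternative settings and was below 0.05 in 5 of them. With 1 library left out it was below 0.05 in 2 of 12 cases and ran from 0.0276 to 0.178, and without siControl+DFO replicate 2, the highest library, the log2 change was 0.20. In siNCOA4 cells, Alad held 15.5, 15.5 and 13.7 FPKM without and 18.2, 17.0 and 14.5 with DFO, which overlapped (adjusted p = 0.283).

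Uros (chr7:133686243-133710072, - strand) encodes uroporphyrinogen III synthase and was the member with the widest scatter. It held 2.36, 4.244 and 4.09 FPKM in siControl, 1.44, 3.36 and 2.12 in siNCOA4, 2.53, 1.76 and 1.90 in siControl+DFO and 4.04, 2.36 and 2.30 in siNCOA4+DFO. All pairs of groups compared overlapped. The log2 change with DFO was -0.73 (SE 0.34, adjusted p = 0.0833) in siControl, passed without the low siControl replicate 1 (-0.998, adjusted p = 0.0326), and was 0.35 (adjusted p = 0.431) in siNCOA4 cells. The interaction was 1.08 (SE 0.47, unadjusted p = 0.0411, adjusted p = 0.250) and did not pass.

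Blvrb (chr7:27447978-27466144, + strand) encodes biliverdin reductase B. It held 43.1, 57.7 and 62.0 FPKM in siControl and 39.6, 48.3 and 32.9 in siControl+DFO, which overlapped because siControl replicate 1 was low. Its fall by 0.43 on the log2 scale passed (SE 0.16, adjusted p = 0.0391), while the adjusted p ran from 0.0101 to 0.0771 over the alternatives that keep all libraries. It was 0.113 without siControl replicate 2, 0.144 without siControl replicate 3 and 0.160 without siControl+DFO replicate 3, and 0.0502 and 0.0807 without siNCOA4 replicate 2 and siControl+DFO replicate 1. In siNCOA4 cells the values went from 57.7, 64.4 and 68.9 to 45.3, 43.1 and 35.1 FPKM without overlap, a 1.55-fold fall (log2 fold change -0.63, adjusted p = 0.007042). The ratio of Hmox1 to Blvrb FPKM rose from 0.203 ± 0.040 in siControl to 2.28 ± 0.26 in siControl+DFO, and from 0.192 ± 0.029 to 1.72 ± 0.090 between both siNCOA4 groups. Blvra, the gene of the other biliverdin reductase, ranged from 11.7 to 24.9 FPKM and passed in no comparison of a pair of groups (log2 change with DFO -0.44 in siControl, adjusted p = 0.0895).

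Knockdown of Ncoa4 alone moved none of the 9 genes past the threshold, beside 4.52% of all genes that rose and 7.21% that fell. At an unadjusted p below 0.05 there were 2, Alas1 and Cpox, both higher, beside 26.2% of all genes. Under DFO, too, siNCOA4 moved none of the 9 past it, beside 6.22% and 10.2% of all genes, and 3 had an unadjusted p below 0.05, Alas1 and Fech higher and Hmox1 lower, beside 32.2% of all genes. The FPKM ranges of both groups did not overlap for Alas1 at normal iron, beside 32.6% of all genes, nor for Alas1, Cpox, Fech and Hmox1 under DFO, beside 34.8%. For the interaction of knockdown and DFO none passed, beside 0.671% and 1.43% of all genes, and Uros, Cpox and Hmox1 had an unadjusted p below 0.05, beside 18.2% of all genes. From 9 genes beside such shares nothing is read from these counts. These counts are from limma, the only tool that was run.

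Alas1 (chr9:106233455-106248654, - strand) encodes the enzyme that starts and limits heme synthesis in most cells, and it was higher with either treatment. It held 6.65, 8.76 and 8.30 FPKM in siControl and 11.7, 9.64 and 10.7 in siNCOA4. With DFO it held 9.28, 12.2 and 9.71 in siControl and 14.9, 12.9 and 12.5 in siNCOA4 cells. Each siNCOA4 library was thus above each siControl library at the same iron status. The siNCOA4 effect was 0.43 on the log2 scale at normal iron (SE 0.14, adjusted p = 0.0681) and 0.37 under DFO (adjusted p = 0.0906). Averaged over both iron states, a comparison chosen after seeing the data, it was 0.40 (SE 0.10, adjusted p = 0.0126), 1.32-fold (95% interval 1.14 to 1.54). Alas1 was the 1 heme gene of 9 that passed in that averaged comparison, where 9.66% of all genes rose and 13.9% fell. Its averaged adjusted p ran from 0.00276 to 0.0242 over the alternatives and from 0.00836 to 0.0332 with 1 library left out.

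DFO raised Alas1 by 0.39 on the log2 scale in siControl cells (1.31-fold, adjusted p = 0.0344), and in siNCOA4 cells the change was 0.33 (adjusted p = 0.0809). The siControl value rested on 2 libraries: the adjusted p was 0.133 without siControl replicate 1 and 0.146 without siControl+DFO replicate 2. With all libraries kept it was 0.0567 with quantile scaling, 0.0728 with the compared groups alone and 0.0526 with a replicate block, and below 0.05 in the other alternative settings. With both treatments against siControl, Alas1 rose by 0.76 (SE 0.14, adjusted p = 0.0007312), 1.70-fold (1.37 to 2.098), and passed without any 1 library. The interaction was -0.06 (95% interval -0.50 to 0.37, adjusted p = 0.905). Alas1 shares exon positions with 4930500F10Rik on the opposite strand. That gene is not among the genes kept, so its level cannot be given. Alas2, the erythroid form, was listed at 0 in every library except siNCOA4 replicate 2, at 0.145 FPKM, and was not tested.

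When FPKM were rescaled to equal sums without small RNA genes, whose share had moved with the treatments, siNCOA4 passed at normal iron for Alas1 (0.52, adjusted p = 0.0285) and Cpox (0.39, adjusted p = 0.0434), and under DFO for Alas1 (0.50, adjusted p = 0.0249) and Fech (0.38, adjusted p = 0.0313). Over all 11 alternative settings these adjusted p ran from 0.0285 to 0.106 for Alas1 and 0.0434 to 0.198 for Cpox at normal iron. Under DFO they ran from 0.0249 to 0.128 for Alas1 and 0.0313 to 0.237 for Fech. Each was below 0.05 in that 1 setting. There the median log2 fold change of all genes was 0.086 for siNCOA4 at normal iron and 0.12 under DFO. Without this rescaling these medians were 0.0048 and -0.0062. The log2 changes were then 0.43 for Alas1 and 0.31 for Cpox at normal iron, and 0.37 for Alas1 and 0.24 for Fech under DFO. The part of this shift of all genes in these passes was not tested. Cpox at normal iron also passed without siControl replicate 2, its highest siControl library (adjusted p = 0.0455).

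With both treatments against siControl, 3 of the 9 genes rose (Alas1, Cpox and Hmox1), beside 25.4% of all genes, and 1 fell (Fech), beside 23.4%. Hmox1 at 6.48-fold and Cpox at 3.24-fold were called, beside 9.24% of all genes called higher. Fech fell by 0.52 (adjusted p = 0.00124). Blvrb (-0.39, adjusted p = 0.0626) passed without siControl replicate 1 (0.0130), siControl+DFO replicate 2 (0.0449) or siControl+DFO replicate 3 (0.0462). Urod (-0.34, adjusted p = 0.135) passed without siNCOA4+DFO replicate 2 (0.00866), and Alad (0.20, adjusted p = 0.144) without siNCOA4+DFO replicate 3 (0.0382). Alad also passed there, with all libraries, under equal sums without small RNA genes (0.29, adjusted p = 0.0322). For Hmox1 and Cpox the combined change was numerically below that of DFO in siControl cells, and for Alas1 it was above. This comparison shares its control libraries with the 2 others against siControl. Averaged over both siRNAs, again chosen after seeing the data, DFO raised 4 of the 9 (Alas1, Alad, Cpox and Hmox1), beside 31.2% of all genes, and lowered 3 (Urod, Fech and Blvrb), beside 30.0%. The averaged Alad value missed the threshold with quantile scaling (adjusted p = 0.216), and also without siControl replicate 1, siNCOA4 replicate 3, siControl+DFO replicate 2, siNCOA4+DFO replicate 1 or siNCOA4+DFO replicate 2 (adjusted p from 0.0597 to 0.0742).

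**Figure D3:**
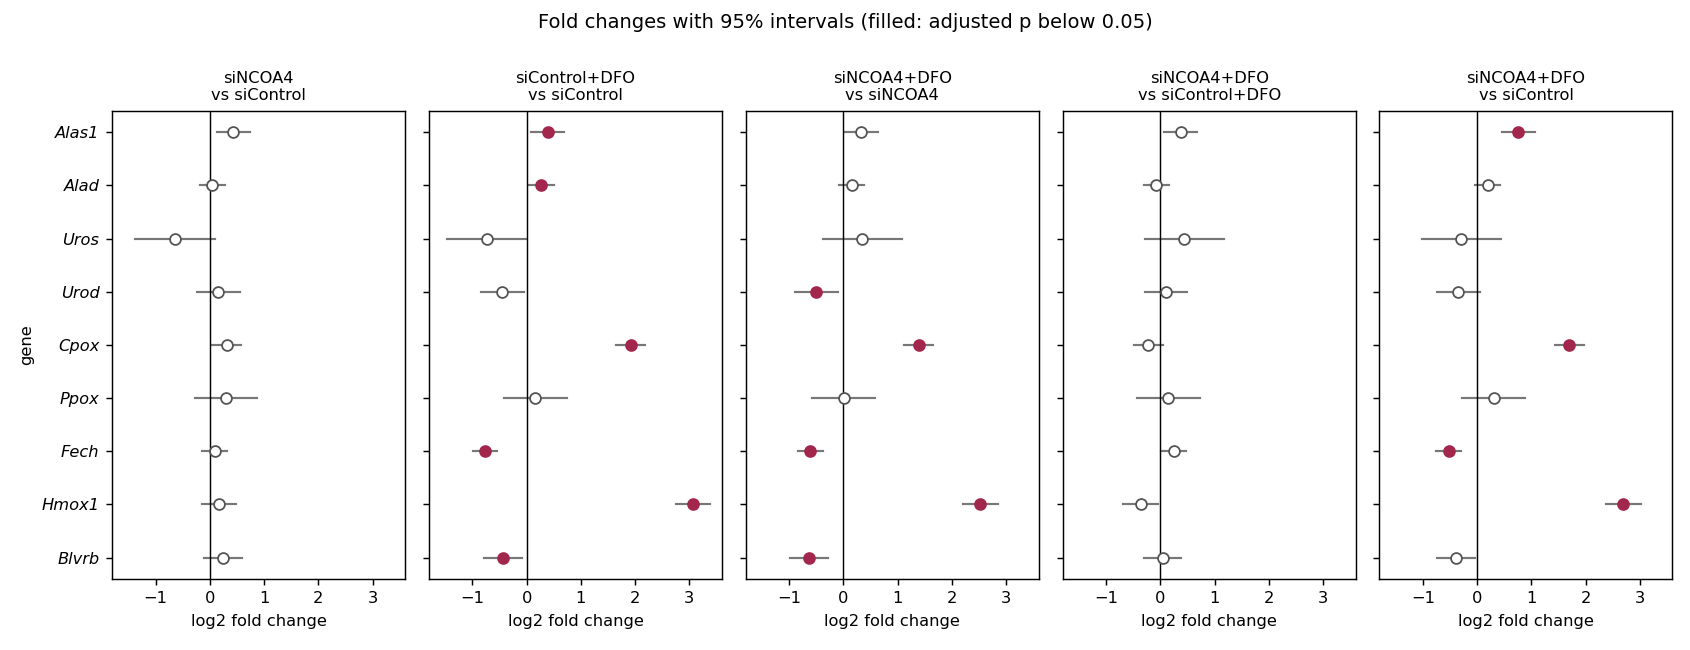
Log2 fold changes of the 9 heme genes (x axis) in 5 comparisons (1 panel each); points are limma estimates with 95% intervals, filled where the adjusted p was below 0.05. Cpox and Hmox1 lie at 1.38 or more in the 3 panels that compare DFO with no DFO, and no point is filled in the 2 panels that compare siNCOA4 with siControl at the same iron status.

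Regulators known for Hmox1 were examined in a list of 20 genes, which holds the BACH, NRF and small MAF genes and Keap1 together with known targets of NRF2, so its counts are not counts of regulators. BACH1 is a heme-sensing repressor that binds with small MAF proteins at the sites where NRF2 activates Hmox1. With DFO in siControl cells 12 of the 20 rose and 6 fell, beside 27.7% and 25.7% of all genes, with a median log2 fold change of 0.68 against -0.01 for all genes. In siNCOA4 cells 10 rose and 6 fell, beside 23.1% and 19.6%, with a median of 0.25. The small MAF genes Maff and Mafk rose 22.0-fold (from 2.85 ± 0.59 to 64.3 ± 10.4 FPKM, adjusted p = 1.227e-08) and 8.32-fold (from 7.86 ± 0.42 to 66.2 ± 5.54 FPKM, adjusted p = 3.048e-08). Slc7a11, the cystine transporter, rose by 3.59 on the log2 scale with DFO (adjusted p = 1.99e-09) and by 1.29 with siNCOA4 at normal iron (adjusted p = 8.699e-05). Other genes, named after their values were seen, were Bach1 itself, which rose by 1.09 on the log2 scale, Nfe2l2, which encodes NRF2 and rose by 0.88, and the NRF2 target Nqo1, which fell by 1.55. Targets in the list moved both ways with DFO in siControl cells. Also named after their values were seen, Txnrd1 went from 63.0 to 115 FPKM and Pir from 70.6 to 44.3 FPKM. Whether NRF2 or BACH1 had a part in the change of Hmox1 was not tested.

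DFO also blocks the iron-dependent hydroxylases that mark HIF, the hypoxia-inducible factor, for breakdown, and Hmox1 is a known HIF target. Of 14 HIF targets tested of 15 listed, 13 rose and none fell with DFO in both siRNA backgrounds. Of all genes, 27.7% rose and 25.7% fell in siControl cells, and 23.1% and 19.6% in siNCOA4 cells. The medians of the HIF targets were 1.83 and 1.46, beside -0.01 and -0.0035 for all genes. Ero1l, an endoplasmic reticulum oxidase, rose 15.3-fold in siControl cells, Ndrg1 8.91-fold and Car9, a carbonic anhydrase, 4.05-fold. The rise of Hmox1, 3.06 on the log2 scale, was within the range of these genes, and that of Cpox, 1.92, was near their median. These values were set side by side without a test.

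Genes of heme and porphyrin transport and of ALAS1 turnover formed another list. Of 20 tested of 24 listed, 3 rose and 9 fell with DFO in siControl cells (median -0.30), beside 27.7% and 25.7% of all genes. In siNCOA4 cells 3 rose and 4 fell (median -0.18), beside 23.1% and 19.6% of all genes, and nothing is read from these counts. Lonp1, a mitochondrial protease that degrades ALAS1, rose 3.03-fold, from 75.4 ± 2.17 to 229 ± 6.16 FPKM (adjusted p = 1.848e-07), and was lower in siNCOA4+DFO than in siControl+DFO by a log2 change of -0.56 (adjusted p = 0.005138). Clpx and Clpp, which encode the subunits of another mitochondrial protease and were named after their values were seen, did not pass (log2 change with DFO in siControl 0.34 and -0.07, adjusted p = 0.0740 and 0.735). Abcg2, a porphyrin exporter, fell 2.51-fold and Slc48a1, which moves heme out of endolysosomes, 2.27-fold. Of 35 genes of heme-containing proteins listed, 23 were tested. With DFO in siControl 4 rose and 11 fell (median -0.42), beside 27.7% and 25.7% of all genes. In siNCOA4 cells 5 rose and 11 fell (median -0.40), beside 23.1% and 19.6% of all genes. Ptgs2, the inducible cyclooxygenase, rose 36.7-fold. Nr1d1, a heme-sensing nuclear receptor of the clock, and Cyp26b1, which degrades retinoic acid, rose 7.47-fold and 6.36-fold with DFO. With siNCOA4 at normal iron they were 3.34-fold and 2.86-fold lower, in a comparison where none of the 9 heme genes passed in either direction.

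**Figure D4:**
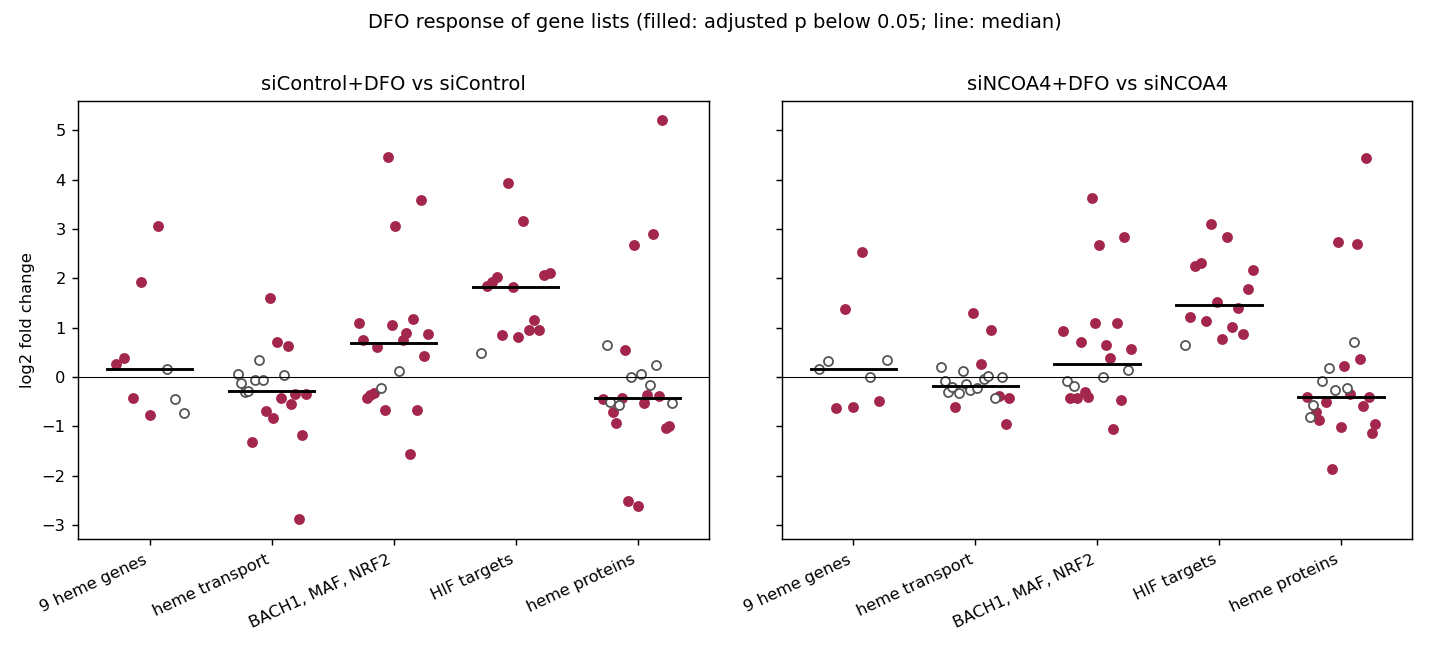
Log2 fold changes with DFO (y axis) in siControl (left) and siNCOA4 cells (right) for the 9 heme genes and 4 gene lists; each point is 1 gene tested, filled where the adjusted p was below 0.05, and lines are medians. HIF targets lie highest, with medians of 1.83 and 1.46, and the heme genes are spread from -0.77 (Fech) to 3.06 (Hmox1) in siControl cells.

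Genes whose profiles were most like those of the 2 called members were taken by Pearson r of log2(FPKM + 0.1) over the 12 libraries, among 10835 genes. Ptgs2 (r = 0.996), Anxa8 (0.996) and Osmr (0.995) were nearest to Hmox1. They went from 5.67 ± 0.35, 0.847 ± 0.094 and 4.43 ± 0.62 FPKM in siControl to 212 ± 9.90, 32.7 ± 1.27 and 30.7 ± 1.17 in siControl+DFO. Ifit1bl2 (r = 0.995), N4bp1 (0.995) and Pvt1 (0.994) were nearest to Cpox, and N4bp1 went from 11.5 ± 0.59 to 28.3 ± 0.79 and Pvt1 from 8.61 ± 0.76 to 37.8 ± 1.56 FPKM. These r values are descriptions over libraries that share 4 groups, and a difference between DFO and no DFO is enough to give a high r.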

How the data were processed

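RNA-seq was made from 12 cultures of HT22 cells with a stranded total RNA kit, 3 libraries in each of 4 groups taken from the labels. Per the labels, the authors trimmed reads with Trimmomatic 0.33, checked them with FastQC, aligned them to mm10 with HISAT2 2.1.0 and counted with featureCounts. The deposited files hold FPKM per gene and library, and the tool and annotation behind the FPKM are not given in the sources used here. Each table had 24347 entries, of which 4 with a shared name were left out. FPKM are not counts, so limma 3.58.1 in R 4.3.3 was fitted to log2(FPKM + 0.1) for the 11924 genes with at least 0.5 FPKM in at least 3 libraries, with 1 mean per group, a mean-variance trend and Benjamini-Hochberg adjustment over all genes in each comparison. Fold changes of low genes are understated on that scale. The interaction is the DFO change in siNCOA4 minus that in siControl. The fit was tested on simulated data. No read totals were given, so no counting interval is stated. Relative depth came from ratios of FPKM below 0.3 between libraries.

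The 9 genes and the gene lists were chosen with earlier results of these data known. Named beside the 9 were Ncoa4, other pathway genes, of which not all are reported here, at most 3 called genes per list by fold change with mean FPKM of at least 1, and the 3 genes nearest in profile to each called member. Coordinates and exon overlaps came from GENCODE for GRCm38, which is mm10, and upstream sequences from RefSeq. Alternatives were the pseudocount, the filter, 3 scalings, a replicate block, the compared groups alone, other variance moderation and each library left out. Replicates carry no culture date in the labels, so p-values measure the spread between these samples.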

Additional observations from a re-analysis of the deposited data

How the results depend on the processing

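Hmox1, Cpox and Fech passed for DFO in both siRNA backgrounds and for both treatments together under all 11 alternative settings and with any 1 library left out, and Hmox1 and Cpox stayed called. Counts of members past the threshold stayed within 1.5 times the reported count in 137 of 140 cases with all libraries and in 155 of 156 with 1 left out. The exceptions were equal sums without small RNA genes, which gave 2 members in place of 0 for siNCOA4 at normal iron, 2 in place of 0 under DFO and 2 in place of 1 averaged, and the leave-out range of 0 to 1 for siNCOA4 at normal iron, where Cpox passed without siControl replicate 2 (adjusted p = 0.0455). In that scaling the median log2 fold change of all genes was 0.086 for siNCOA4 at normal iron, 0.12 under DFO and 0.11 averaged. Signs changed only for values that had not passed. With all libraries these were Alad for siNCOA4 under DFO (0.059 with equal sums without small RNA genes), Ppox for DFO in siNCOA4 cells (-0.00096 with a pseudocount of 1 and -0.0070 with quantile scaling) and the Urod interaction (0.00088 with equal sums without small RNA genes). With 1 library left out, log2 values for siNCOA4 under DFO ran from -0.14 to 0.019 for Alad, -0.096 to 0.18 for Blvrb, -0.043 to 0.26 for Ppox and -0.12 to 0.25 for Urod. Those of Ppox ran from -0.031 to 0.51 for siNCOA4 and -0.21 to 0.33 for DFO in siNCOA4 cells. Interactions ran from -0.14 to 0.056 for Alas1, -0.36 to 0.18 for Ppox and -0.27 to 0.10 for Urod. Same-numbered replicates did not deviate together (r from -0.127 to 0.116 over 18 pairs), so the numbers were not taken as pairs. With the replicate block, 5 members passed for DFO in siControl in place of 6 and 4 in siNCOA4 cells in place of 5, as Alas1 (adjusted p = 0.0526) and Urod (adjusted p = 0.0605) missed the threshold, and no other member's call changed. The cause of these shifts was not tested. With 3 libraries a group and FPKM without read totals, changes as small as those of Alad and Alas1 with DFO in siControl cells lay close to the adjusted p threshold.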
